A study of Mus musculus with 6 samples.

Results

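The stretch described here is the first 40 Mb of mouse chromosome 7, counted from the centromeric end on the genome build mm9. Its members were the islands of TH2B whose midpoint lay in it, an island being a broad region in which ChIP reads exceeded control reads. There were 84 such islands among 15585 in spermatocytes, 250 among 17340 in round spermatids and 178 among 13582 in total germ cells of wild-type mice (the wild-type list), 512 of 46507 in all. The stretch was picked from island counts in these same lists, so its counts are a description and carry no test.

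TH2B is a variant of histone H2B that is made in the testis and takes the place of much of the somatic H2B in meiotic cells. The study measured where it sits on chromatin by ChIP-seq in germ cells of adult males, with 3 ChIP and 3 input libraries and 1 library per group. The Th2b+/tag mice carry 1 copy of TH2B with His, Flag and HA tags at its C-terminus. From these mice, spermatocytes (meiotic) and round spermatids (post-meiotic) were separated on a BSA gradient, their fractions were pooled and ChIP used an anti-HA antibody. The pooling was read as within each cell type, without which the tagged lists could not be compared. The wild-type mice had no tag, and ChIP of their total male germ cells, all stages together, used an antibody to TH2B itself. The tagged and wild-type lists therefore differ in genotype, antibody and cells at once, and these cannot be told apart. No HA ChIP of cells without the tag was among the samples, so a fold over control was not shown to be specific to TH2B. Each list was taken to be called against the input of the same cells.

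The proximal part of chromosome 7 is known for clustered gene families. Vomeronasal receptors detect pheromones in sensory neurons of the nose, and zinc finger genes of the KRAB type encode repressors, many of them directed at retrotransposons. Such clusters arise by repeated duplication, and their near-identical copies make short reads hard to place. The stretch also holds imprinted genes, which are expressed from 1 parental copy, among them Peg3, expressed from the paternal copy. In the RefSeq gene table (GRCm38.p6), chromosome 7 as a whole carried 126 of the 230 protein-coding genes with a Vmn1r symbol (54.8%), 52 of 123 with a Vmn2r symbol, 93 of 397 with a Zfp symbol and all 13 Psg and 15 Ceacam genes. Peg3 lay between Zim1 and Usp29 in the order of that table. The table is of another build than the islands, so no gene was assigned to an island, and which of these genes lie under an island is not reported here.

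Depth was known only inside islands. The 84 spermatocyte islands of the stretch held 9636 ChIP and 7947 control reads, the 250 round spermatid islands 37909 and 29243, and the 178 wild-type islands 27237 and 20009. The median number of ChIP reads per island was 104.5, 120 and 122.5, in the same order. No group had a second library, so the spread between animals is unknown. Intervals are 95% intervals that cover counting error only and treat islands as independent. Islands cluster, so these intervals are too narrow. A position outside a list may hold reads too few for the caller, and was not read as free of TH2B.

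Spermatocyte islands were sparse in the stretch, and round spermatid islands were not. Spermatocytes had 2.10 islands per Mb inside it and 4.29 in the remaining 112.5 Mb of chromosome 7, a ratio of 0.489 (0.383 to 0.618). Round spermatids had 6.25 islands per Mb inside and 5.11 in the rest, a ratio of 1.22 (1.05 to 1.42). Wild-type germ cells had 4.45 inside and 6.58 in the rest, a ratio of 0.677 (0.571 to 0.798). The rest includes most of a run of 7.04 Mb without islands in the rows analysed here. Islands covered 0.747% of the stretch in spermatocytes, 2.42% in round spermatids and 1.29% in the wild-type list, beside 1.64%, 1.85% and 1.81% of the rest of the chromosome. The excess in round spermatids depended on the comparison. Against the other 18 autosomes, with 6.73 islands per Mb, the ratio was 0.928 (0.816 to 1.05). With islands at an FDR of at most 0.0001 it was 1.02 (0.803 to 1.29) against the rest of chromosome 7. Both intervals included 1. The spermatocyte and wild-type ratios stayed below 1 in both settings, at 0.339 and 0.829 against the other autosomes and at 0.277 and 0.657 with the stricter FDR. The stretch opens with sequence that holds no island in any list. Counted from the first island of any list on, the ratios to the rest of chromosome 7 were 0.530 (spermatocytes), 1.32 (round spermatids) and 0.733 (wild type). The other autosomes open with such an empty part too, which weighs less in a whole chromosome than in 40 Mb. Ratios to them were not computed without these parts.

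The stretch held 2.98 times as many round spermatid as spermatocyte islands (2.32 to 3.86). In the rest of chromosome 7 the count was 575 against 483, a ratio of 1.19 (1.05 to 1.35), and on the other 18 autosomes 15622 against 14389, a ratio of 1.09 (1.06 to 1.11). The ratio in the stretch was 2.5 times that in the rest of the chromosome (1.90 to 3.29). With equal numbers of islands taken from each list in order of the deposited p-value it was 2.62, and by base pairs covered it was 3.24. At an FDR of at most 0.0001 there were 100 round spermatid and 25 spermatocyte islands in the stretch, a ratio of 4 (2.56 to 6.47). This interval overlapped that of all members, of which these islands are a part. In the rest of the chromosome there were 276 and 254 at this FDR, a ratio of 1.09 (0.913 to 1.29).

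Set beside the first 40 Mb of every other autosome, the stretch stood out by its spermatocyte count. Its 84 spermatocyte islands were the fewest of the 19 autosomes, where the other 18 ran from 106 to 349 with a median of 252.5. Its 250 round spermatid islands lay within the range of 141 to 407 (median 269.5) and its 178 wild-type islands within 111 to 295 (median 208.5). The ratio of round spermatid to spermatocyte islands was the highest of the 19, and the next were 1.33 on chromosome 17, 1.32 on chromosome 16 and 1.31 on chromosome 12. The lowest was 0.890 on chromosome 4. The stretch was chosen with these counts in view, so its rank is a description.

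**Figure D1:**
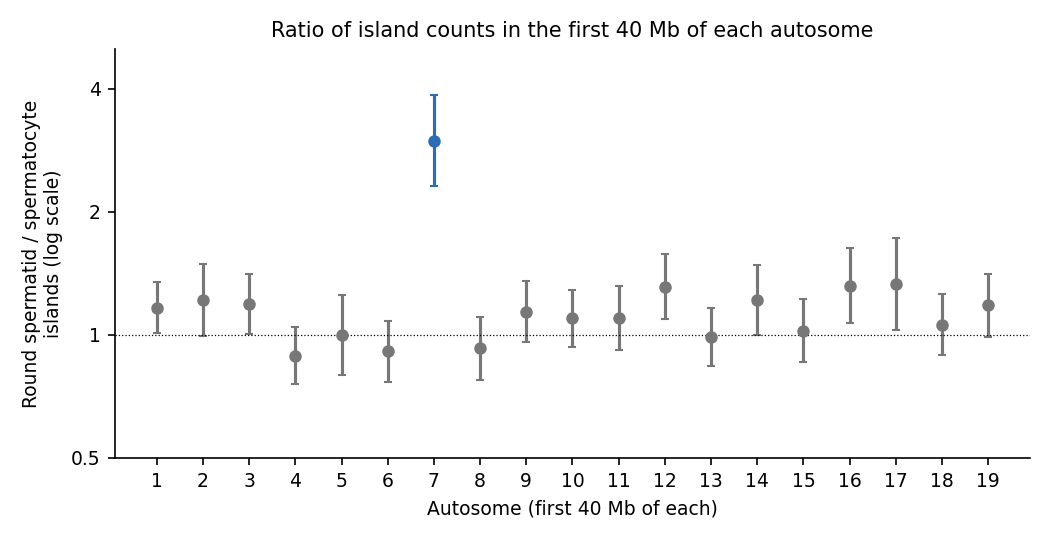
Ratio of round spermatid to spermatocyte island counts (log scale) in the first 40 Mb of each of the 19 autosomes, with bars for the 95% interval of counting error. Chromosome 7 (blue) stands at 2.98, and the other 18 (grey) lie between 0.890 and 1.33.

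Along the stretch, the 3 lists were distributed differently. The first islands of any list began at chr7:3070201, and the 3 windows of 1 Mb before it were empty in all lists. On all 19 autosomes the first island began between 2999801 and 3158201. Assembled mouse chromosomes are known to open with an unsequenced gap at the centromere. Counts in blocks of 10 Mb were 18, 34, 23 and 9 in spermatocytes, 40, 101, 64 and 45 in round spermatids and 14, 42, 50 and 72 in the wild-type list, from the centromeric end on. The tagged lists were richest between 10 and 20 Mb, which held 40.5% of the spermatocyte members (29.9 to 51.7) and 40.4% of the round spermatid members (34.3 to 46.8) but 23.6% of the wild-type ones (17.6 to 30.5). Wild-type islands were most frequent in the last 10 Mb, with 40.4% of their members there (33.2 to 48.0), beside 10.7% in spermatocytes (5.02 to 19.4) and 18% in round spermatids (13.4 to 23.3). The ratio of round spermatid to spermatocyte islands was above 1 in each block, at 2.22 (1.24 to 4.12), 2.97 (2 to 4.52), 2.78 (1.70 to 4.70) and 5 (2.41 to 11.6), and the intervals of the 4 blocks overlapped.

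In windows of 1 Mb, 32 of the 40 held an island of a tagged list. Round spermatids had more islands in 28 of them and spermatocytes in 4. Over all autosomal windows with tagged islands, round spermatids had more in 52.2% and spermatocytes in 36.1%. A lead of at least 5 islands in round spermatids was seen in 16 of these 32 windows. In the rest of the chromosome it was seen in 12 of the 98 windows with tagged islands. Over all autosomes this lead was reached in 15.0% of the windows with tagged islands. These counts come from the values by which the stretch was chosen. Of the 40 windows, 13 held no island in spermatocytes, 9 in round spermatids and 4 in the wild-type list. In the rest of the chromosome 28, 17 and 10 of 113 windows held none, in the same order. Windows empty in all 3 lists numbered 4 in the stretch and 6 in the rest.

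The windows richest in round spermatid islands were those from 10 to 11 Mb with 24, from 32 to 33 Mb with 21, from 12 to 13 Mb with 16, and from 18 to 19 Mb and from 24 to 25 Mb with 15 each. Spermatocytes had 8, 1, 5, 2 and 8 islands in these windows, and wild-type germ cells 10, 8, 3, 4 and 6. The richest spermatocyte windows overlapped with these in part: those from 10 to 11 Mb and from 24 to 25 Mb had 8 each, that from 11 to 12 Mb had 7, and those from 9 to 10, 12 to 13 and 27 to 28 Mb had 5 each. The richest wild-type windows were from 38 to 39 Mb with 12, from 23 to 24 Mb with 11, from 10 to 11 Mb with 10, and from 34 to 35 and from 39 to 40 Mb with 9 each. The window from 10 to 11 Mb was thus among the 5 richest in all 3 lists. The largest differences between round spermatids and spermatocytes were 20 islands in the window from 32 to 33 Mb, 16 from 10 to 11 Mb, 13 from 18 to 19 Mb, 11 from 12 to 13 Mb and 9 in each of the windows from 15, 21 and 23 Mb on. Without the 3 windows richest in round spermatid islands the ratio of round spermatid to spermatocyte islands was 2.7, so it did not rest on them.

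The window from 32 to 33 Mb showed the contrast in its clearest form. Its 21 round spermatid islands ran from chr7:32270401 to 32944600, covered 87.4 kb, and had folds from 1.19 to 1.86, so they were many and weak rather than few and strong. The 1 spermatocyte island, chr7:32577801-32581000 with a fold of 1.44 (111 ChIP and 90 control reads), lay within the longest of the round spermatid islands, chr7:32574601-32585200 with a fold of 1.30. Of the 8 wild-type islands, 3 overlapped round spermatid ones. In islands of this window the input density, which is the number of control reads per kb of island, was 26.7 in round spermatids, close to the 26.9 of the median island of the stretch.

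Towards the distal end the tagged lists thinned out while the wild-type list did not. In the last 5 Mb, a part chosen after its values were seen, there were 4 spermatocyte, 12 round spermatid and 42 wild-type islands. The last island inside the stretch was chr7:38033801-38038000 in spermatocytes, with a fold of 1.36, chr7:38569801-38571400 in round spermatids, with 1.37, and chr7:39345801-39347200 in the wild-type list, with 1.63. The first beyond 40 Mb was chr7:46930801-46938600 in spermatocytes, with 1.31, chr7:46917001-46922800 in round spermatids, with 1.58, and chr7:46391601-46392400 in the wild-type list, with 1.62. The boundary thus lay in a run of 7.04 Mb, chr7:39347201-46391600, in which none of the 3 lists used here held an island. It was the longest such run between islands on the 19 autosomes, the next being 2.23 Mb on chromosome 8. Whether the files used here hold every row of the lists in this run is not known, so the run, the empty windows beyond 40 Mb and the densities of the rest of the chromosome are those of the rows analysed here. With the run left out of the rest of chromosome 7, an alternative added once the data had been seen, the density ratios were 0.461 in spermatocytes, 1.15 in round spermatids and 0.638 in the wild-type list.

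**Figure D2:**
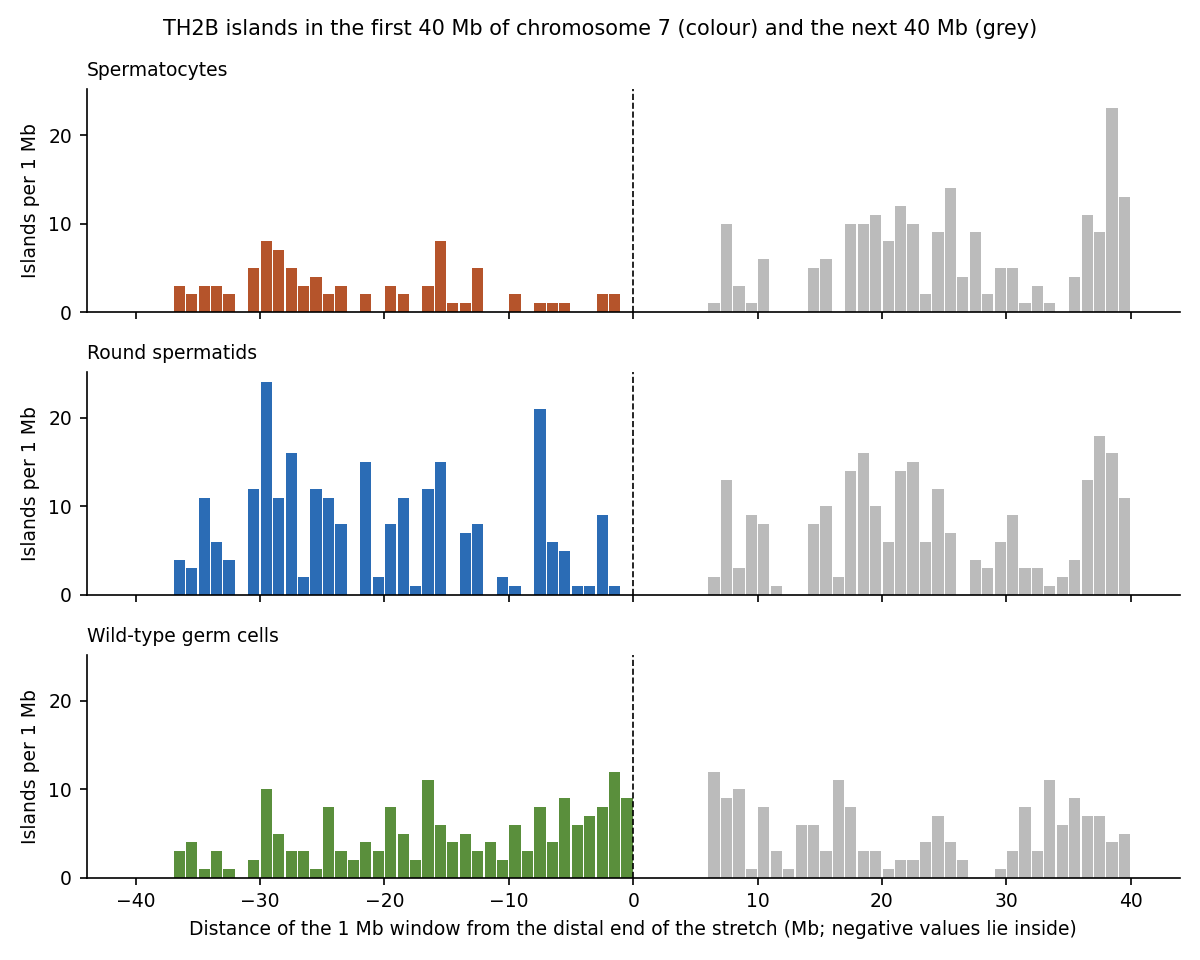
Islands per window of 1 Mb in each list, by distance from the distal end of the stretch (dashed line), with the stretch in colour and the next 40 Mb in grey. Round spermatids reach 24 and 21 islands in single windows of the stretch, spermatocytes at most 8, and wild-type islands reach 12 near its distal end. No list has an island in the first 6 windows beyond the line.

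Enrichment in the stretch was weak in all 3 lists. The fold over control, as the authors deposited it, had a median of 1.43 in spermatocytes (quartiles 1.34 and 1.59), 1.42 in round spermatids (1.32 and 1.60) and 1.43 in the wild-type list (1.33 and 1.59). In the rest of the chromosome the medians were 1.52, 1.47 and 1.44. The intervals of the median were 1.39 to 1.5 inside and 1.5 to 1.56 outside in spermatocytes, where they met only at their ends, and overlapped in round spermatids (1.39 to 1.46 and 1.44 to 1.49) and in the wild-type list (1.38 to 1.47 and 1.42 to 1.46).

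High folds were missing mainly from the spermatocyte list. Only 1 of 84 spermatocyte members had a fold of at least 2 (1.19%, 0.0301 to 6.46), beside 53 of 483 in the rest of the chromosome (11.0%, 8.33 to 14.1) and 8.84% of the whole list. In round spermatids it was reached by 15 of 250 (6%, 3.40 to 9.70), beside 6.09% in the rest of the chromosome and 6.37% of the list, and in the wild-type list by 10 of 178 (5.62%, 2.73 to 10.1), beside 6.08% and 6.25%. For this fold the members of both latter lists were thus near the background. An FDR of at most 0.0001 was reached by 29.8% of the spermatocyte members (20.3 to 40.7), beside 52.6% in the rest of the chromosome (48.0 to 57.1). In round spermatids the shares were 40% (33.9 to 46.4) and 48.0% (43.8 to 52.2), and in the wild-type list 41.6% (34.2 to 49.2) and 42.8%. On the other 18 autosomes they were 50.3% (49.5 to 51.2) in spermatocytes, 49.3% (48.5 to 50.1) in round spermatids and 44.7% (43.9 to 45.6) in the wild-type list. In both tagged lists the interval of the stretch lay below that of the other autosomes. In the wild-type list the intervals overlapped.

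Islands of the stretch were about as long as those elsewhere on the chromosome but lay where the input was denser. Median lengths of 3400 bp in both tagged lists and 2400 bp in the wild-type list stood beside 3600 bp (spermatocytes), 3400 bp (round spermatids) and 2600 bp (wild type) in the rest of the chromosome. The median input density was 26.1 control reads per kb in spermatocytes (24.7 to 27.5), beside 22.2 (21.8 to 22.7) in the rest. In round spermatids it was 26.9 (25.9 to 27.5) beside 25 (24.6 to 25.4), and in the wild-type list 34.6 (33.3 to 36.2) beside 33.1 (32.5 to 33.6), where the intervals overlapped slightly. Spermatocytes thus had the fewest members, the lowest share of high folds and, of the 3 lists, the widest gap in input density to the rest of the chromosome. Input density is known only inside called islands, so the part of the input in the low island count was not tested.

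**Figure D3:**
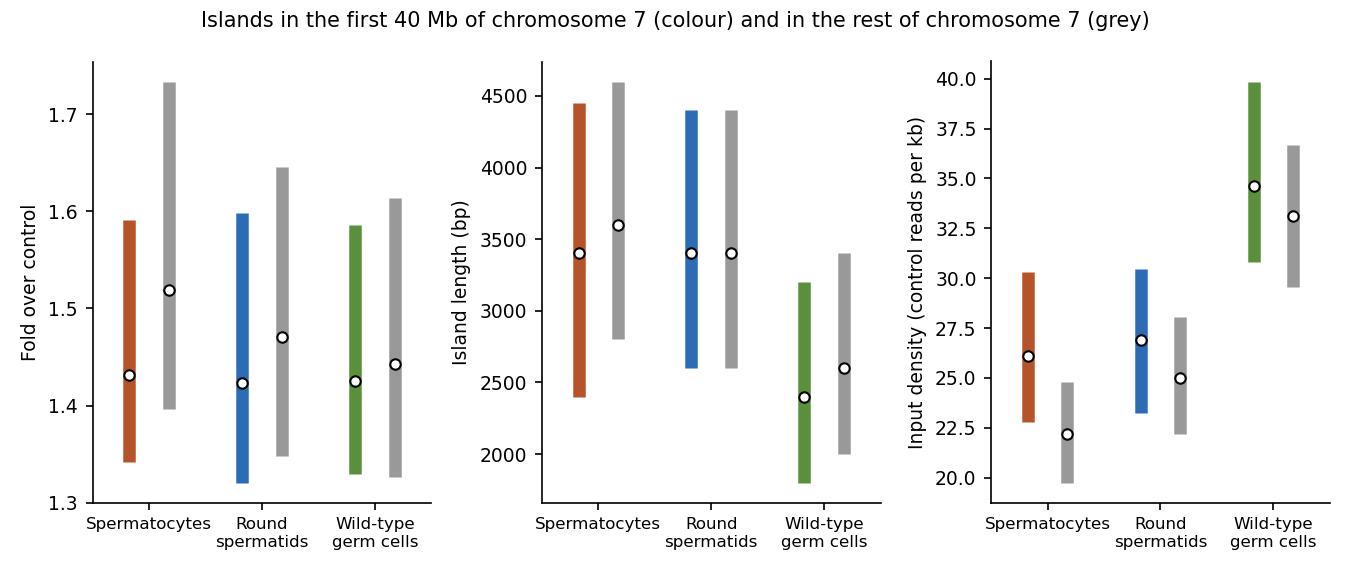
Fold over control, island length and input density of islands in the stretch (colour) and in the rest of chromosome 7 (grey), with bars from the first to the third quartile and circles at the median. The spermatocyte pair differs most in fold (1.43 and 1.52) and in input density (26.1 and 22.2 reads per kb).

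A few members lay where the input was more than 2 times as dense as in the median island of their list. There were 2 in spermatocytes (2.38%, 0.290 to 8.34), 6 in round spermatids (2.4%, 0.886 to 5.15) and 2 in the wild-type list (1.12%, 0.136 to 4). The shares were 0.207%, 0.348% and 0.811% in the rest of the chromosome and 0.973%, 1.38% and 0.635% on the other 18 autosomes. In round spermatids these 6 islands held 11.4% of the ChIP reads of all members. The 2 islands held 8.24% in the wild-type list and 1.68% in spermatocytes. Such shares of reads were not computed outside the stretch, so whether they are particular to it was not tested. The dense islands included the 2 longest members in round spermatids and the longest in the wild-type list, but not the longest in spermatocytes. In round spermatids chr7:23992801-24018400 was 25600 bp long with a fold of 1.06 (0.998 to 1.13) and 74.1 control reads per kb, and chr7:23563401-23585000 was 21600 bp long with a fold of 1.11 (1.02 to 1.20) and 56.1 control reads per kb. The third, chr7:27232001-27242800, was of usual density, at 27.8 reads per kb, with a fold of 1.40 (1.20 to 1.63). In wild-type germ cells the longest was chr7:24050801-24066800 with 16000 bp, a fold of 1.13 (1.05 to 1.22) and 80.1 control reads per kb, followed by chr7:20781601-20791400 with 1.13 and chr7:33666401-33675600 with 1.24. Long dense islands of the 2 lists thus lay within 1 Mb of each other near 24 Mb.

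The longest spermatocyte islands were shorter, with 9200 bp at chr7:10535201-10544400 (fold 1.23), 7200 bp at chr7:11270601-11277800 (1.69) and 6800 bp at chr7:20650401-20657200 (1.22). The densest input of a spermatocyte member was 102.5 reads per kb at chr7:27924201-27925000 with a fold of 1.34, then 46.7 at chr7:10414401-10415600 with 1.42 and 45.0 at chr7:5137801-5138400 with 2.17. In round spermatids the densest were 2 islands of 400 bp, chr7:27564801-27565200 with 150.0 reads per kb and a fold of 1.5, and chr7:29279001-29279400 with 105.0 and 1.77, then chr7:20748401-20755600 with 82.4 and 1.13. In wild-type germ cells they were chr7:15353001-15358600 with 130.5 reads per kb and a fold of 1.11, the long island near 24 Mb, and chr7:20855601-20857800 with 65.5 and 1.33. Leaving out the islands of dense input left the ratio of round spermatid to spermatocyte islands at 2.98.

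The named members of highest fold were each shorter than the median member of their list, with lengths from 600 to 3200 bp. Among spermatocyte members with at least 50 ChIP reads the first was chr7:5137801-5138400, of 600 bp, with a fold of 2.17 (1.33 to 3.6, 50 ChIP and 27 control reads). It was followed by chr7:11335001-11338200 with 1.99, chr7:9636801-9638400 with 1.91, chr7:9629801-9631400 with 1.91 and chr7:30422601-30424600 with 1.86. The first 2 of these overlapped round spermatid islands, and the pair at 9.6 Mb lay 5400 bp apart.

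In round spermatids the first was chr7:20860801-20862000 with a fold of 2.94 (1.87 to 4.76, 75 ChIP and 27 control reads), followed by chr7:9733601-9735200 with 2.73, chr7:37110401-37112800 with 2.58, chr7:24713401-24715400 with 2.56 and chr7:10774001-10776800 with 2.45. None of these 5 overlapped an island of another list, which held for 81.6% of all round spermatid members. In wild-type germ cells the first was chr7:27235001-27235600 with a fold of 3.57 (2.05 to 6.52, 60 ChIP and 17 control reads), followed by chr7:39256401-39257200 with 2.79, chr7:7667001-7669000 with 2.47, chr7:26603801-26605000 with 2.47 and chr7:5624601-5626400 with 2.33. The first of these lay within the 10800 bp round spermatid island at 27.2 Mb, whose own fold was 1.40, and the other 4 overlapped no tagged island, which held for 84.3% of all wild-type members. As extremes of their lists these folds have intervals without a correction for having been picked.

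**Figure D4:**
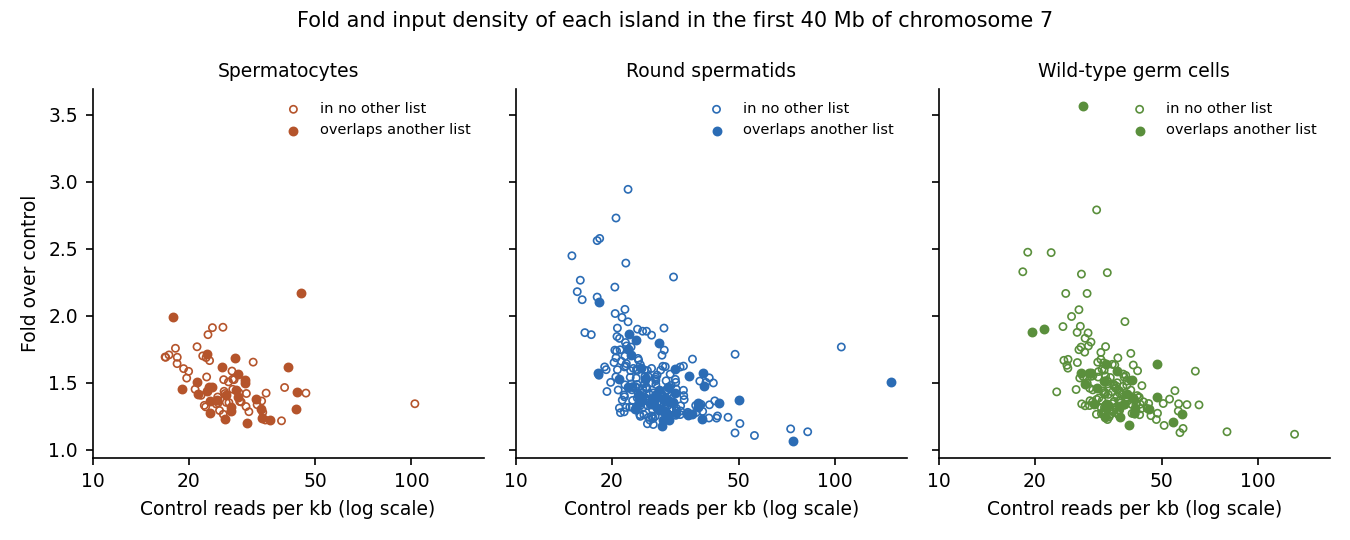
Fold over control and input density (log scale) of each member, by list, with filled points for islands that overlap another list and open points for those that overlap none. The highest folds, 2.17, 2.94 and 3.57, belong to islands with 45.0, 22.5 and 28.3 control reads per kb. The first of these islands is among the 3 densest spermatocyte members. The 10 islands of more than 2 times the median density of their list have folds of at most 1.77.

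Overlap between the lists, with at least 1 bp in common, had a higher share in the stretch than in the rest of the chromosome, with intervals apart, in 2 of the 6 directions. Of the spermatocyte members, 27 of 84 overlapped a round spermatid island (32.1%, 22.4 to 43.2), beside 67 of 483 in the rest (13.9%, 10.9 to 17.3) and 16.6% on the other 18 autosomes. Seen from round spermatids, 27 of 250 overlapped a spermatocyte island (10.8%, 7.24 to 15.3). This stood beside 11.3% in the rest (8.83 to 14.2) and 15.3% on the other 18 autosomes (14.7 to 15.9). The excess was thus not seen from that side. Round spermatid islands covered 2.42% of the stretch and 1.85% of the rest, and the part of this in the overlap was not tested.

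Wild-type members overlapped a round spermatid island in 24 of 178 cases (13.5%, 8.83 to 19.4), beside 34 of 740 in the rest (4.59%, 3.20 to 6.36), and a spermatocyte island in 9 (5.06%, 2.34 to 9.38), beside 3.51% in the rest. Of the round spermatid members 9.20% overlapped a wild-type island (5.92 to 13.5), beside 5.74% (3.98 to 7.97), and of the spermatocyte members 10.7% (5.02 to 19.4), beside 5.59% (3.72 to 8.03). On the other 18 autosomes these shares were lower, at 4.81% (4.48 to 5.16) and 4.43% (4.10 to 4.78), with intervals apart from those of the stretch. Wild-type islands there overlapped a round spermatid island in 6.08% (5.67 to 6.51), also apart, and a spermatocyte island in 5.15% (4.77 to 5.55), not apart. With 50% reciprocal overlap the share of spermatocyte members that overlapped round spermatid islands was 14.3%, and at an FDR of at most 0.0001 in both lists 2 of 25 did (8%). With that FDR in both lists 3 of 74 wild-type members overlapped a round spermatid island (4.05%). Of the 24 wild-type members that overlapped one at the authors' threshold, 12 had such an FDR themselves (50%), beside 41.6% of all wild-type members. Shares for the rest of the chromosome were not computed at the stricter settings. Whether the excess of the stretch holds at them was therefore not tested.

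Members that overlapped neither other list numbered 53 of 84 in spermatocytes (63.1%, 51.9 to 73.4), 204 of 250 in round spermatids (81.6%, 76.2 to 86.2) and 150 of 178 in the wild-type list (84.3%, 78.1 to 89.3). In the rest of the chromosome the shares were 81.4% (77.6 to 84.7), 83.3% and 92.3% (90.1 to 94.1), so islands of 1 list alone were the majority in both parts of the chromosome. Members found in both tagged lists differed little in fold from the others. The median fold was 1.44 in the 27 spermatocyte members that overlapped a round spermatid island and 1.42 in the 57 that did not, and 1.38 and 1.42 in the 27 and 223 round spermatid members with and without a spermatocyte island. The 223 round spermatid islands without a spermatocyte partner had a median length of 3400 bp and a median of 26.7 control reads per kb, beside 3600 bp and 28.2 in the 27 with one.

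In the 27 regions where islands of both tagged lists met, the folds did not differ beyond counting error. Median folds were 1.44 (spermatocytes) and 1.38 (round spermatids). The ratio of round spermatids to spermatocytes ran from 0.668 to 1.40 with a median of 0.995, above 1 in 12 regions and below 1 in 15. The interval of the ratio included 1 in each of the 27. Over both whole lists, 1.78% of the shared regions had an interval above 1 and 3.25% below it, and 0.189% were at least 2-fold higher and 0.34% at least 2-fold lower in round spermatids, beside 0 of either kind in the stretch. A region enters only where both lists passed the caller's threshold, which favours ratios near 1, and the islands behind its 2 folds need not match in position or size.

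The lowest ratios were 0.668 (0.385 to 1.16) at chr7:5136201-5139000, 0.707 (0.470 to 1.06) at chr7:11335001-11340800 and 0.714 (0.461 to 1.11) at chr7:11314401-11321800. The highest were 1.40 (0.917 to 2.13) at chr7:37635401-37641000, 1.36 (0.930 to 2) at chr7:23345201-23350600 and 1.30 (0.828 to 2.03) at chr7:12502401-12506200. At chr7:5136201-5139000 the spermatocyte fold of 2.17 came from 600 bp and the round spermatid fold of 1.45 from 2800 bp around it. The input density of the shared regions was 27.3 reads per kb in spermatocytes and 28.2 in round spermatids at the median.

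**Figure D5:**
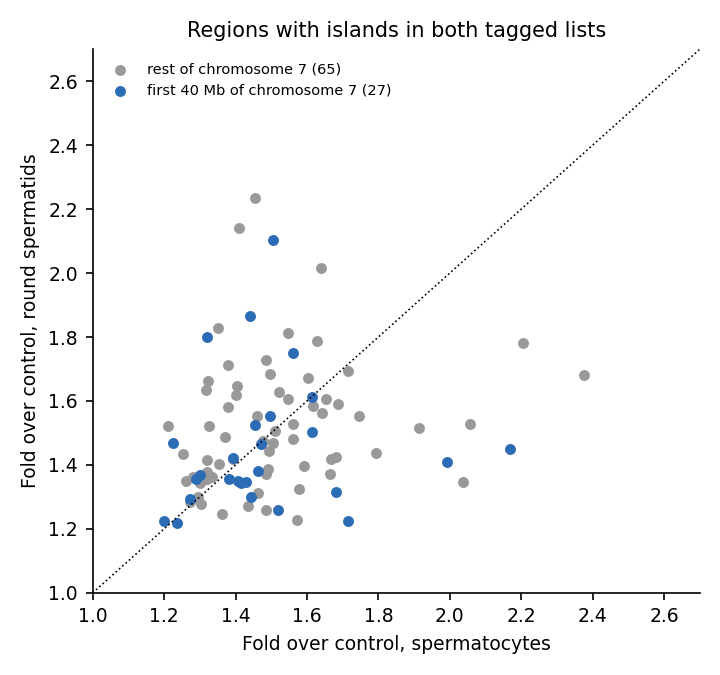
Fold over control in spermatocytes and round spermatids in the regions of chromosome 7 where islands of both tagged lists overlap, with the 27 regions of the stretch in blue, the 65 of the rest of the chromosome in grey and equal folds on the dotted line. The blue points lie on both sides of the line, with ratios from 0.668 to 1.40.

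Members that overlapped both other lists were 5 of 84 in spermatocytes (5.95%, 1.96 to 13.3), 4 of 250 in round spermatids (1.6%, 0.438 to 4.05) and 5 of 178 in the wild-type list (2.81%, 0.918 to 6.43). In the rest of the chromosome the shares were 0.828% (0.226 to 2.11), 0.348% (0.0422 to 1.25) and 0.405% (0.0837 to 1.18), with intervals that overlapped those of the stretch. On the other 18 autosomes they were 0.855% (0.711 to 1.02), 0.839% (0.702 to 0.994) and 0.884% (0.727 to 1.06). There the spermatocyte interval lay apart from that of the stretch and those of the other lists overlapped. Of the 27 shared tagged regions 5 overlapped a wild-type island (18.5%, 6.3 to 38.1), beside 4 of 65 in the rest of the chromosome (6.15%, 1.70 to 15.0) and 169 of 2645 over the whole lists (6.39%). The members lay at 5 sites, of which chr7:11314401-11321800 and the neighbouring chr7:11335001-11340800 were 13.2 kb apart. At the first the folds were 1.71 (1.13 to 2.62) in spermatocytes, 1.22 (1.01 to 1.48) in round spermatids and 1.51 (1.16 to 1.97) in the wild-type list. At the second they were 1.99 (1.42 to 2.82), 1.41 (1.10 to 1.82) and 1.57 (1.14 to 2.18). The intervals of the 3 lists overlapped at both sites. The other three sites were near 20.96 Mb, with folds of 1.30, 1.37 and 1.59, and near 27.34 Mb, with 1.24, 1.22 and 1.34, and a chain of islands near 21.19 Mb. There the spermatocyte fold was 1.38 and the wild-type fold 1.31, and of the round spermatid islands one (fold 1.82) met the wild-type island alone and the other (1.35) the spermatocyte island alone, so no base was common to all 3 lists.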

How the data were processed

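ChIP-seq of TH2B was analysed from 3 lists of islands, 1 per ChIP library. The islands were called with SICER on mm9, per the submitters' processing notes, and the lists' names give a window of 200 bp and a gap of 600 bp. For the aligner and read filters: not given in the sources used here. The lists have no header, so column meanings rest on the values. Per island, the authors deposited counts of ChIP and of control reads as whole numbers, a p-value and an FDR comparing them (at most 0.00999), and a fold over control. Dividing the count ratio by this fold gave 1 value throughout each list (0.854 for spermatocytes, 0.944 for round spermatids, 0.989 for wild type). Groups came from the sample titles. The wild-type input is labelled with the TH2B antibody, but was read as an input by its title.

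Starts were counted from 0, and ends were brought to 1 convention; positions are given counted from 1. Members were islands with a midpoint below 40 Mb on chromosome 7. Chromosome lengths came from GenomeInfoDb 1.38.1. Shares have exact (Clopper-Pearson) intervals, ratios of counts and folds exact conditional binomial ones, medians order-statistic ones, and ratios of ratios and of folds log-normal ones. With 1 library per group no p-value was computed. Counting and merging were tested on simulated lists. Python 3.11.15, numpy 2.4.6, pandas 2.3.3, scipy 1.17.1 and matplotlib 3.10.9 were used. Named islands were, per list, the 5 highest folds among islands of at least 50 ChIP reads, the 3 longest and the 3 of densest input, the 5 richest windows and largest differences, the 3 highest and lowest shared ratios, all sites in 3 lists, and the islands next to 40 Mb. The members and lists were chosen with earlier results of these data known.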

Additional observations from a re-analysis of the deposited data

How the results depend on the processing

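Under 36 of 65 alternatives a value stayed inside its counting interval (counts: within 1.5 times) and under 28 it left it. Under 1 its direction changed, within counting error. Stricter subsets hold fewer islands by construction. A stricter overlap rule on the same islands can only lower a share. At the stricter FDR the islands a share is taken of are fewer too, so its fall does not follow by construction. The FDR and the fold rest on the same read counts, so median folds at the stricter FDR are not independent of that filter. The cause of the fall in shares at the stricter FDR, and of changes under the other settings, was not tested. Islands in the stretch numbered 25 (spermatocytes), 100 (round spermatids) and 74 (wild-type) at an FDR of at most 0.0001, and 1, 15 and 10 with folds of 2 or more. The ratio of round spermatid to spermatocyte islands was 4 and 15.0 (2.31 to 631) under these settings, and between 2.62 and 3.24 under the others. The 15.0 rests on 1 spermatocyte island. In the rest of chromosome 7 the ratio was 1.09 (0.913 to 1.29) at the stricter FDR. With folds of 2 or more it was 0.660 there (35 against 53 islands, 0.418 to 1.03). The density ratio to the rest of chromosome 7 was 0.277 (spermatocytes) and 1.02 (round spermatids) at the stricter FDR. Against the other autosomes it was 0.339, 0.928 and 0.829. The second of these turned in direction, but its interval (0.816 to 1.05) included 1. Median folds were 1.69, 1.62 and 1.63 at the stricter FDR and 1.39, 1.36 and 1.36 with at least 100 ChIP reads.

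The share of spermatocyte members overlapping round spermatid islands was 14.3% with 50% reciprocal overlap and 8% at the stricter FDR, and overlapping wild-type islands 4% at the latter. Round spermatid members overlapped spermatocyte islands in 4.8% and 2%, and wild-type islands in 2.80% and 3%. Wild-type members overlapped round spermatid islands in 3.93% and 4.05%, and spermatocyte islands in 1.35% at the stricter FDR. None of these shares was computed for the rest of the chromosome at the same settings. No paired analysis was possible because each group has 1 library. Reads outside islands and library totals were not used here, so depth limits which weak islands were called, and the lists' lengths do not measure amounts of TH2B.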
